A study of Homo sapiens with 34 samples.

Results

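H3K27me3, the trimethylation of lysine 27 of histone H3, was examined in KELLY cells after knockdown of RUNX1T1. The libraries were taken by their label for this mark and restricted to chromosomes 1 to 22 and X, which gave 6 peak lists of the 34 samples of the series. KELLY, a neuroblastoma line in which MYCN is amplified, was the host, and the cells used carried a doxycycline-inducible short hairpin RNA (shRNA) against RUNX1T1, a transcriptional co-repressor. The 3 control libraries came from cells given the solvent DMSO and the other 3 from cells given doxycycline, both for 72 h. Controls and treated cells carried the same hairpin construct, so the controls differ from the treated cells also in the drug itself. The labels do not say whether replicates were separate cultures, and the p-values below measure only the spread between these libraries. A hairpin acts on messenger RNA, so the lists cannot check that RUNX1T1 was reduced, and RNA was not analysed here.

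H3K27me3 is written by Polycomb repressive complex 2 through its catalytic subunits EZH2 and EZH1 and is removed by the demethylases KDM6A and KDM6B. It marks genes held silent in a cell type, among them the HOX clusters and transcription factors of other lineages, in domains that can span many genes. Promoters that carry it together with H3K4me3, a mark of promoters, are called bivalent. In neuroblastoma the adrenergic state is held by a set of core transcription factors, HAND2 and GATA3 among them, and a mesenchymal state by another.

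The 6 lists were of different kinds, and this had to be set apart before treatments were compared. For 1 control (DMSO replicate 1) and 2 treated libraries (doxycycline replicates 1 and 2) the peak caller estimated fragments of 256 to 280 bp, and the 24 lists of the other marks had 205 to 278 bp. For the remaining controls (DMSO replicates 2 and 3) and doxycycline replicate 3 the estimates were 105 to 112 bp, little above the 101 bp of a read. The first 3 are called long-fragment libraries here and the last 3 short-fragment libraries. The names stand for the estimate of the caller, and whether the fragments themselves differed in length was not tested. Redundant reads made up 3 to 7% of the long-fragment libraries and 7 to 25% of the short-fragment ones. Treatments were compared within each kind, where doxycycline stands in 2 of 3 long-fragment and 1 of 3 short-fragment libraries. The depth behind the calls, the smaller of the ChIP and input reads, was 72.0 to 81.1 M reads in DMSO and 57.0 to 63.4 M in doxycycline. Depth and treatment cannot be told apart in these lists.

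The mark covered 11.2% of the genome in DMSO replicate 1, 12.7% in doxycycline replicate 1 and 10.5% in doxycycline replicate 2. In the short-fragment libraries it covered 4.21% in DMSO replicate 2, 4.34% in DMSO replicate 3 and 4.49% in doxycycline replicate 3. The kind of library thus went with a 2.63-fold difference in extent, whereas the control lay between both treated libraries among the long-fragment lists. Averaged over the kinds, doxycycline minus DMSO was 0.060 on the log2 scale (exact two-sided permutation within kinds, p = 0.667, adjusted p = 1 over 6 values). With 9 possible assignments the smallest p that this exact test allows is 0.11. The log2 difference was 0.049 in the long-fragment and 0.071 in the short-fragment libraries, and both doxycycline long-fragment libraries differed from each other by 0.27. The direction turned with a stricter peak threshold (q of 0.001 or less, -0.071) and without doxycycline replicate 1 (-0.0072).

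The promoter of a gene was taken as 1 kb upstream and downstream of each of its transcript starts, with overlapping windows merged. For a gene with several starts the promoter share was thus pooled over all its windows, which can lie apart. Over 19970 protein-coding genes, promoters held more of the mark than the genome did. The mean covered share of a promoter was 17.8% in DMSO replicate 1, 19.1% in doxycycline replicate 1 and 17.2% in doxycycline replicate 2. It was 11.1%, 10.1% and 10.5% in DMSO replicates 2 and 3 and doxycycline replicate 3. Gene bodies followed with means of 15.8%, 17% and 15.1% in the long-fragment libraries, and 8.77%, 7.97% and 8.47% in the short-fragment ones. In each kind the treated libraries lay on both sides of a control, or the controls on both sides of the treated library. The log2 difference was 0.0092 for promoters (exact permutation p = 0.889), 0.020 for gene bodies (p = 0.889) and 0.066 for the genome outside genes (p = 0.667), each with an adjusted p of 1. The promoter share divided by the genome share was 1.51 to 1.64 in the long-fragment and 2.34 to 2.64 in the short-fragment libraries, with a log2 difference of -0.051 between treatments (exact permutation p = 0.667, adjusted p = 1). For promoters and gene bodies the sign turned under settings that are listed in the closing section.

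**Figure D1:**
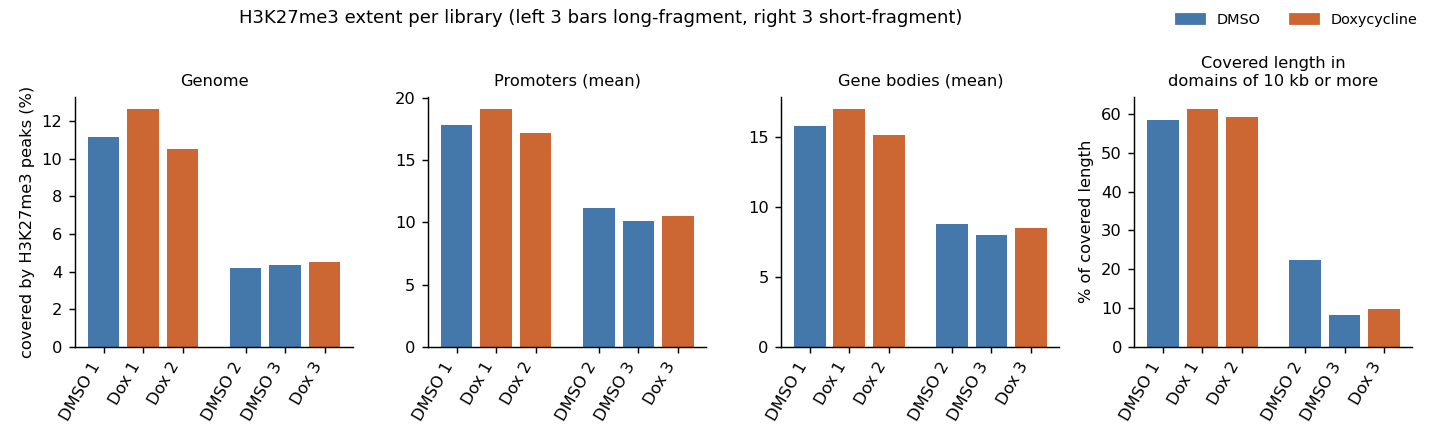
Share of the genome, of promoters (mean) and of gene bodies (mean) covered by H3K27me3 peaks, and share of the covered length in domains of 10 kb or more, 1 bar per library in percent, DMSO in blue and doxycycline in orange. The 3 bars on the left of each panel are the long-fragment libraries, at 10.5 to 12.7% of the genome, and the 3 on the right the short-fragment ones, at 4.21 to 4.49%.

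Domains of 10 kb or more held 58.5%, 61.4% and 59.2% of the covered length in DMSO replicate 1 and doxycycline replicates 1 and 2. In the short-fragment libraries they held 22.3% in DMSO replicate 2, 8.08% in DMSO replicate 3 and 9.66% in doxycycline replicate 3. The log2 difference between treatments was -0.21 (exact permutation p = 1, adjusted p = 1), and its sign turned without DMSO replicate 2 (0.15) or without doxycycline replicate 3 (0.044). The 2 short-fragment controls themselves differed by 1.46 on the log2 scale. When peaks within 5 kb of each other were joined, a setting added after seeing the data, the shares were 74.0 to 87.8% in all 6 libraries. The widest single domain was in the HOXB cluster in DMSO replicate 1 (442 kb, chromosome 17 from 48374827 to 48816846, hg38) and in doxycycline replicate 1 (574 kb). Of the 442 kb found in that control, 100% was covered in doxycycline replicate 1 and 99.8% in doxycycline replicate 2. In the short-fragment libraries it was covered over 85.1% in DMSO replicate 2, 76.7% in DMSO replicate 3 and 84.6% in doxycycline replicate 3. The widest domain of DMSO replicates 2 and 3 and of doxycycline replicate 3 lay over CFAP74, GABRD and PRKCZ on chromosome 1, and the stretch called in DMSO replicate 3 was covered over 98.7 to 100% in every library.

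The short-fragment lists were largely contained in the long-fragment ones. Of the covered length of a short-fragment library, 85.4 to 98.7% lay inside a given long-fragment library over 9 pairs. The reverse share was 30.1 to 39.1%. Within the long-fragment kind the share of a library inside another was 76.3 to 92.0%, and within the short-fragment kind 55.1 to 66.8%. No promoter was covered in all 3 short-fragment lists and at 0 in all 3 long-fragment lists. Across 15802 bins of 100 kb with the mark in at least 2 libraries, the covered shares of 2 libraries of one kind had a Pearson correlation of 0.98 to 0.99, and those of different kinds one of 0.81 to 0.89. Bins share their library, depth and base composition, and these are descriptions.

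Libraries of different treatments differed about as much as libraries of the same treatment. In promoters covered in at least 2 libraries, doxycycline replicates 1 and 2 differed by at least 20 percentage points at 14.4% of 6008 promoters. DMSO replicate 1 differed by as much at 12.2% from doxycycline replicate 1 and at 12.8% from doxycycline replicate 2. Among the short-fragment libraries, DMSO replicates 2 and 3 differed by that much at 15.5%, and doxycycline replicate 3 differed at 15.8% from the one and 16.5% from the other. Gene bodies gave the same order of size, with 7.03% between the doxycycline long-fragment libraries against 4.45% and 5.45% for control against treated. The short-fragment gene bodies gave 7.00% between controls against 5.81% and 6.24%.

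What the lists shared was the Polycomb landscape of the line. At 1476 genes, 7.39% of all, at least 50% of the promoter was covered in each of the 6 libraries, and at 12869 genes (64.4%) no library had a peak at the promoter. Of the 1476 promoters, 589 (39.9%) carried an H3K4me3 peak in all 6 lists of that mark, against 71.9% of all genes. These 589 were bivalent by peak overlap with the promoter windows, and whether both marks lay at the same site was not tested. Only 48 of the 1476 (3.25%) carried H3K27ac, a mark of active elements, in all 6 of its lists, against 10493 (81.5%) of the 12869 promoters without the mark. The 1476 promoters held a median of 37.4 CpG dinucleotides per kb, compared with 26.99 over all genes and 28.1 at promoters without the mark. In 100 kb bins the same held. The 384 bins covered over at least 50% in every library had a median of 16.99 CpG per kb and a mean of 1.41 gene starts, whereas all 29169 bins had 8.28 and 0.684. Among chromosomes, 19 was the most covered, at 30 to 32.8% in long-fragment and 14.8 to 17.7% in short-fragment libraries, and the treatment groups overlapped in at least 1 kind on every chromosome.

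HOX genes, which encode the homeodomain proteins that set position along the body axis, ranged from nearly full coverage in HOXA and HOXB to almost none in HOXD. HOXA (chromosome 7, 27092993 to 27200091, hg38) was covered over 100%, 99.4% and 95.1% in DMSO replicates 1 to 3. In doxycycline replicates 1 to 3 it was covered over 100%, 100% and 93.8%. HOXB (chromosome 17, 48528526 to 48728750) was covered over 100%, 91.3% and 86.2% in DMSO and 100%, 100% and 89.4% in doxycycline. HOXC (chromosome 12, 53938831 to 54056030) was covered over 44.8 to 48.0% in all 6 libraries. The covered portion held HOXC10 to HOXC13, at 73.3 to 100% of their promoters. HOXC6 and HOXC9, at 19 to 39.8% of their promoters, also carried H3K27ac in all 6 of its lists. HOXD (chromosome 2, 176092721 to 176190907) was nearly free of the mark, at 5.52%, 4.41% and 2.18% in DMSO and 5.36%, 5.33% and 1.45% in doxycycline. HOXD11 stood out within it with promoter shares of 57%, 52.8% and 27.7% in DMSO and 59.2%, 61.9% and 18.2% in doxycycline, beside H3K27ac in all 6 lists. No HOX cluster separated the treatments in both kinds. HOXA and HOXB were at 100% in DMSO replicate 1, so neither could separate in the higher direction. Of 39 HOX promoters, 31 were covered in at least 2 libraries and so were tested. None was called, beside 0 of all 6008 promoters tested.

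**Figure D2:**
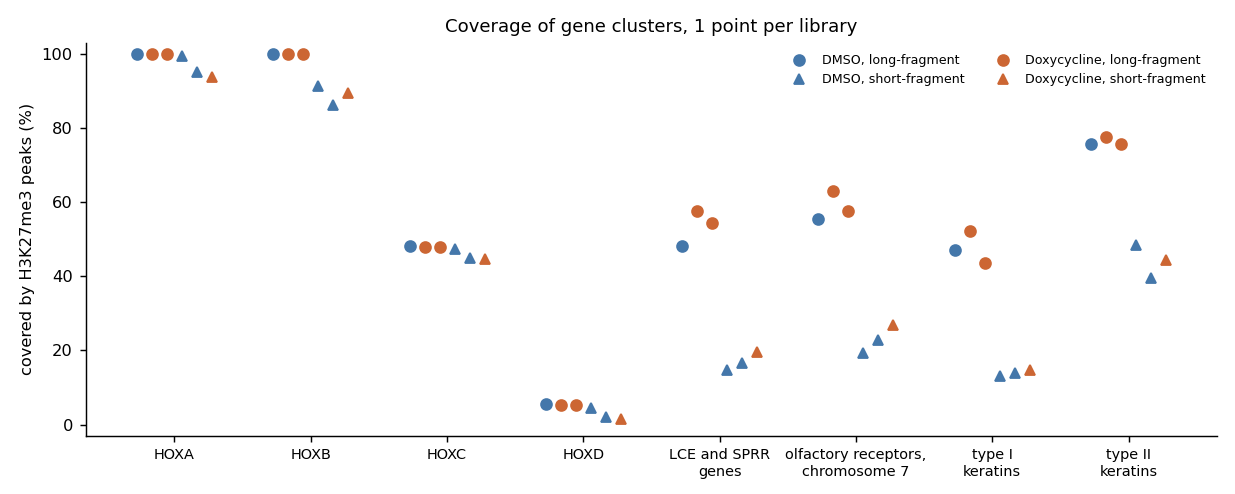
Covered share in percent of the 4 HOX clusters and of 4 gene clusters of skin, hair and smell, 1 point per library, circles for long-fragment and triangles for short-fragment libraries, DMSO in blue and doxycycline in orange. HOXA and HOXB sit at 86.2 to 100%, HOXC at 44.8 to 48.0% and HOXD at 1.45 to 5.52% in both treatments, while the other clusters differ mainly by the kind of library.

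Developmental transcription factors outside the HOX clusters were the list with the most of the mark. Of 109 such genes, 81 (74.3%) had at least 50% of the promoter covered in all 6 libraries, compared with 7.39% of all genes. PAX7, LHX1, NKX2-2, GATA5, OLIG3 and NEUROG1, regulators of muscle, kidney, neural and gut lineages, had fully covered promoters in every library. A total of 14 had no peak at the promoter in any list, among them SIX3, TBX3, TLX2, TLX3, IRX3 and NEUROD1, and all 14 carried H3K27ac in every list of that mark. In the long-fragment libraries 6 members were higher and 5 lower with doxycycline, with a median difference of 0. In the short-fragment libraries 18 were higher and 35 lower, again with a median of 0. Over all genes 2538 were higher and 3082 lower. The mean short-fragment difference was -3.15 percentage points for the list and -0.092 over all genes. A promoter fully covered in the controls can only stay or fall, and doxycycline replicate 3 was the only treated library of this kind. Of the 109, 95 were covered at the promoter in at least 2 libraries and so were tested. None was called or separated at its promoter.

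SOX2, a pluripotency and neural progenitor factor, was the member whose gene body separated the treatments. Its gene body (chromosome 3, 181711925 to 181714436) was covered over 80.7%, 23.8% and 21.7% in DMSO replicates 1 to 3 and over 100%, 100% and 66.6% in doxycycline replicates 1 to 3. Its promoter was covered over 27.6%, 8.60% and 5.0% in DMSO and 100%, 100% and 15.2% in doxycycline. Within each kind every treated library lay above every control, in the promoter by 6.60 percentage points at the least. In the limma fit across all gene bodies the difference was 31.6 percentage points (SE 6.5) with an adjusted p of 1.

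The adrenergic core transcription factors were free of the mark. Of 19 members, 18 (94.7%) had no peak at the promoter in any of the 6 lists, beside 64.4% of all genes. SATB1 had 2.52% in doxycycline replicate 1 alone. HAND2, GATA3, ISL1 and TBX2 were at 0 in all 6, and all 19 carried H3K4me3 and H3K27ac in every list of those marks. Of 11 catecholamine and chromaffin genes, 9 were at 0 in all lists. PNMT, which makes adrenaline, was covered over 32.6% in doxycycline replicate 1 and 11.4% in doxycycline replicate 2, and at 0 in all 3 controls and in doxycycline replicate 3. Of 26 neuronal differentiation genes 23 were at 0 in all 6 lists, and RBFOX3, a neuronal splicing factor, held 58.7 to 74.7%. The defining factors of the adrenergic state were thus without the mark in both treatments.

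Mesenchymal state genes were partly covered. Of 25 members 6 had at least 50% of the promoter covered in all 6 libraries, including TWIST2, MEOX2 and FOSL1, and 4 were at 0 in all. PRRX1, a driver of the mesenchymal state, had promoter shares of 100%, 54.6% and 59.3% in DMSO and 100%, 87.1% and 52.9% in doxycycline, and the groups overlapped in the long-fragment kind, while the treated short-fragment library lay below both controls. NOTCH3 is a Notch receptor of mesenchymal cells. Its promoter was at 0 in all 3 controls and at 32.3%, 29.2% and 9.82% in doxycycline replicates 1 to 3, just under the margin of 10 percentage points used here. Its difference was 20.3 percentage points (SE 5.68) in the limma fit, with an unadjusted p of 0.0289 and an adjusted p of 0.839. NOTCH2 lay at 96.7%, 44.1% and 45.7% in DMSO and 100%, 100% and 56.4% in doxycycline (unadjusted p = 0.0399, adjusted p = 0.839, limma). NOTCH3 and NOTCH2 were chosen after their values were seen. Over the list, 6 members were higher and 7 lower in the long-fragment libraries, and 9 were higher and 9 lower in the short-fragment ones. Of the 25 members, 20 were covered at the promoter in at least 2 libraries and so were tested, and none was called.

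Genes listed around RUNX1T1 (genes of the RUNX1T1 model in the plot of gene lists) were free of the mark about as often as all genes. The list was compiled for this comparison from RUNX1T1 and its MTG family relatives, LSD1 (KDM1A), the CoREST proteins and histone deacetylases, MYCN and HAND2, and other genes named in the study, including ABCA10 as a reference gene outside the MYCN targets. Of 18 members, 13 had no H3K27me3 at the promoter in any of the 6 lists, RUNX1T1, HAND2, MYCN and KDM1A among them. CBFA2T3, a family relative of RUNX1T1, was covered over 100% in 5 libraries and over 96.1% in doxycycline replicate 3. ABCA10, an ABC transporter gene, had promoter shares of 46.5%, 10.6% and 18.1% in DMSO and 42.5%, 41.7% and 28.7% in doxycycline. The treated libraries lay below the control in the long-fragment kind and above both in the short-fragment kind. The difference in the limma fit had an unadjusted p of 0.431.

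The Polycomb genes themselves carried H3K4me3 and H3K27ac. Of 33 genes of the complexes and of the H3K27 demethylases, 22 (66.7%) had no H3K27me3 peak at the promoter in any list, near the 64.4% of all genes. All 33 carried H3K4me3 and H3K27ac in all lists of those marks, against 71.9% and 64.2% of all genes. EZH2 was at 0 in 5 libraries and at 2.26% in DMSO replicate 3. EPOP, a partner of the Polycomb complex 2 core, was the member whose gene body separated the treatments. Its gene body (chromosome 17, 38671703 to 38674957) was covered over 56.5%, 35.4% and 51.4% in DMSO and 45%, 28% and 24.8% in doxycycline. Each treated library lay below the controls of its kind, by 10.6 percentage points at the least. The limma difference was -19.3 percentage points (SE 7.25) with an adjusted p of 1.

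Markers of other cell types were covered in part. At least 50% of the promoter was covered in all 6 libraries at 3 of 12 blood cell markers (MPO, ITGAM and TAL1), 2 of 7 endothelial markers, 2 of 9 epithelial and liver markers and 1 of 9 Schwann and glial markers, beside 7.39% of all genes. No peak was found in any library at 3, 1, 3 and 6 of them in this order, beside 64.4% of all genes. Housekeeping genes were the reverse, with 27 of 30 at 0 in all lists. Of 19 WNT ligands 7 had at least 50% of the promoter covered in all 6 libraries, including WNT1, WNT2 and WNT3A. WNT16 had 63.3%, 42.5% and 44.6% in DMSO and 75.7%, 70.9% and 49.8% in doxycycline (limma unadjusted p = 0.0218, adjusted p = 0.839). It was the only 1 of the 19 with an unadjusted p under 0.05, and the rule for named genes did not choose it. CDKN2A, the locus of the p16 and p14 cell cycle inhibitors, had 79.8%, 42% and 24.8% in DMSO and 67.1%, 63.5% and 23.2% in doxycycline. Its treated libraries were lower in both kinds, the short-fragment gap being 1.59 percentage points (limma unadjusted p = 0.113). NGFR, the low-affinity neurotrophin receptor, had 72.1%, 55.7% and 64.6% in DMSO and 100%, 61.4% and 38.7% in doxycycline, with the long-fragment groups overlapping. Over all members the median difference between treatments was 0 in nearly every list, which members at 0 or at 100% in every library can set. The median was also taken over the members with a peak in at least 1 library. For the 3 covered CDK inhibitors it was -14.5 percentage points in the long-fragment and -10.2 in the short-fragment libraries. Both are the differences of CDKN2A itself, the middle member. Of the 3, 0 were higher and 3 lower in the long-fragment libraries, and 1 was higher and 2 lower in the short-fragment ones. For the 2 covered catecholamine genes the median was 9.0 and 0.41. In the other lists it lay between 0 and 1.46 in the long-fragment and between -1.89 and 2.78 in the short-fragment libraries, beside 0 and 0 over all genes.

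**Figure D3:**
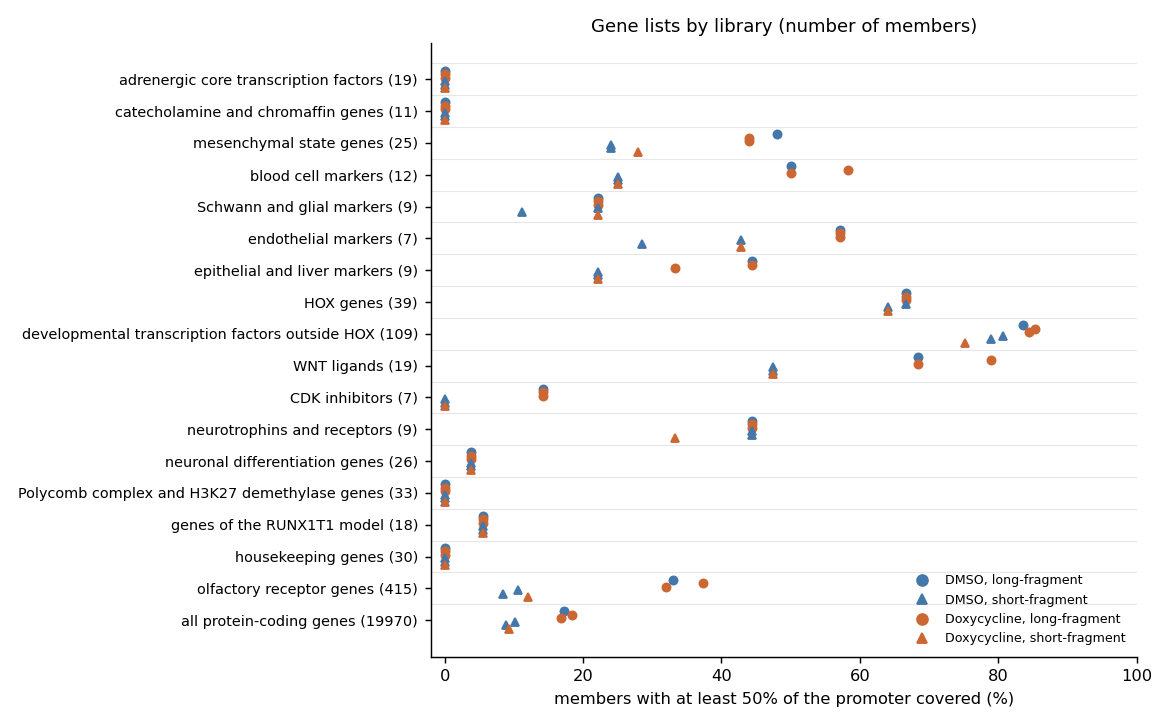
Share of the members of each gene list, in percent, with at least 50% of the promoter covered by H3K27me3, 1 point per library, circles for long-fragment and triangles for short-fragment libraries, DMSO in blue and doxycycline in orange. Developmental transcription factors sit at 75.2 to 85.3% and the adrenergic core factors at 0%, and in most lists the 2 treatments of one kind fall on or beside each other.

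A test across all features called no region. A linear model with a term for the kind of library and a term for treatment (limma, moderated variance, Benjamini-Hochberg) called 0 of 15802 bins, 0 of 7777 gene bodies and 0 of 6008 promoters, each a share of 0%. At an unadjusted p under 0.05 there were 129 bins (99 higher and 30 lower with doxycycline), 155 gene bodies (122 and 33) and 205 promoters (157 and 48). These are 0.816%, 1.99% and 3.41% of the features tested. The smallest adjusted p was 0.0586, at the promoter of ARL14EPL. With a library left out 223 promoters were called without DMSO replicate 1 (60 higher and 163 lower) and 17 without doxycycline replicate 3 (13 and 4). Each of these libraries is alone in its kind and treatment, so without it the contrast rests on 1 kind with a single library in one arm, assumed to vary like the others.

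Features were also listed by separation of the libraries, with no test. A feature counted as separated where in each kind every doxycycline library lay above every DMSO library, or every one below, by at least 10 percentage points. This held at 70 promoters in the higher direction (1.17% of 6008) and 11 in the lower (0.183%). It held at 25 gene bodies in the higher (0.321% of 7777) and 4 in the lower direction (0.0514%), and at no bin. With a library left out the rule has fewer conditions to meet, and the counts were 109 and 41 promoters without DMSO replicate 2, 91 and 31 without DMSO replicate 3, 90 and 61 without doxycycline replicate 1 and 157 and 16 without doxycycline replicate 2. At a threshold of q of 0.001 or less they were 12 and 6 promoters, and 4 and 1 gene bodies. In lists cut to equal covered length within each kind they were 63 and 16 promoters, and 21 and 8 gene bodies. Just inside the margin lay SNX22 at 10.01 percentage points and just outside it CYP24A1 at 9.89, and in the lower direction RAI2 at 10.1 and PARP14 at 9.97.

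The separated promoters with higher values had weaker peaks than the promoters covered in all libraries, and fewer CpG. Both sets were chosen by coverage in these same lists, so the difference in peak strength can follow from the choice and is a description only. Their strongest peak stood at a median fold enrichment over input of 2.76 in doxycycline replicate 1 and 2.59 in doxycycline replicate 2, compared with 3.97 and 3.56 at the 1476 promoters covered in all libraries. In doxycycline replicate 3 the values were 3.17 and 3.63. The 11 lower promoters stood at 3.27 and 2.79 in doxycycline replicates 1 and 2, and at 3.74 over the 8 with a peak in doxycycline replicate 3. Over all peaks of these 3 lists the medians were 2.30, 2.33 and 3.12. Ranked by −log10 q within its list, the strongest peak of a separated promoter stood at a median percentile of 82.6, 77.0 and 56.0 in doxycycline replicates 1 to 3, and that of a shared promoter at 98.0, 97.5 and 94.8. The separated promoters held a median of 13.2 CpG per kb, against 25.6 at all tested promoters. Of the 70, 61.4% had fewer than 20 CpG per kb, against 37.8% of all tested. The 11 lower promoters had a median of 43.4 CpG per kb. H3K4me3 was absent from all 6 lists at 43 of the 70 (61.4%), against 41.2% of tested promoters, and H3K27ac at 54 (77.1%) against 63.6%. At none of the 81 promoters did H3K4me1, H3K4me2, H3K4me3 or H3K27ac appear in all 3 lists of one treatment while missing from the 3 of the other. Over all 6008 tested promoters this was rare too. For DMSO alone and doxycycline alone it held at 3 and 12 for H3K4me1 and 0 and 3 for H3K4me2. For H3K4me3 it held at 11 and 6, and for H3K27ac at 15 and 17. Its absence at the 81 therefore does not set them apart. By position, 15 of the 70 lay on chromosome 1 and 11 on chromosome 19, out of 658 and 558 tested there. Those on chromosome 1 include neighbours, which are not independent counts. C1orf68, SPRR1A, SPRR3 and SPRR2B lie between 152719522 and 153071611, and OR2T33, OR2T5 and OR2T35 between 248269917 and 248645278.

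Promoter sequences of separated genes show this range, from CpG-rich to nearly CpG-free. They are given for the 2 genes of largest separation in each direction that matched the RefSeq table (GRCh38.p14), which in the lower direction rank behind PRNP and HRURF. Each window holds 250 bases before to 50 after the start, 5′ to 3′ on the strand of the gene, with each CG in capitals. PLEKHD1 lies at chr14:69484478-69484777 on the plus strand and KRT25 at chr17:40755282-40755581 on the minus strand. FOXD4L3 lies at chr9:68302617-68302916 and DEFB126 at chr20:142340-142639, both on the plus strand. At least 1 CG stands in 95.9% of the 27195 RefSeq promoters of this length, with a median of 14.
PLEKHD1: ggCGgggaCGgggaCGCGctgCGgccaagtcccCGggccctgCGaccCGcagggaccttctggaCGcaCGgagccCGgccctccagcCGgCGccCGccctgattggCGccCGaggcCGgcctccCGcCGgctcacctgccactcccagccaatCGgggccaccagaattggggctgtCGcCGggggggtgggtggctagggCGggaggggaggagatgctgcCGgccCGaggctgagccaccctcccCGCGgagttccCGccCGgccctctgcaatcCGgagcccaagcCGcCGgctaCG
KRT25: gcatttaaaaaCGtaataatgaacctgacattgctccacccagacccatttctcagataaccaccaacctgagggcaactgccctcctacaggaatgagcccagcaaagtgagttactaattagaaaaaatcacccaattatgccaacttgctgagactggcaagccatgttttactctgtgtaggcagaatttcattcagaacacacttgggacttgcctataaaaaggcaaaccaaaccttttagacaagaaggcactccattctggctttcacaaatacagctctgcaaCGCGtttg
FOXD4L3: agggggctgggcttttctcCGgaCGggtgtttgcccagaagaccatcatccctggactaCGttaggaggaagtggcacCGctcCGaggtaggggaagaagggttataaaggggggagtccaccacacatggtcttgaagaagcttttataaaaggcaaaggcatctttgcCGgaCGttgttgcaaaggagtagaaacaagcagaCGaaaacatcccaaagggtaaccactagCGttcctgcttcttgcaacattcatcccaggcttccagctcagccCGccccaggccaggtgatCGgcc
DEFB126: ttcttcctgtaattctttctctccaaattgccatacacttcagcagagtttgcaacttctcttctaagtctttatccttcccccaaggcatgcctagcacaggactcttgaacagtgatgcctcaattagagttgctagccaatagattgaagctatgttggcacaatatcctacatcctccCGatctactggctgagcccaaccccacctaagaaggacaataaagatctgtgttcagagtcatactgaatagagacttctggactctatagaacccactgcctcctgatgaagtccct

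The 4 windows hold 33, 3, 11 and 1 CG in this order. PLEKHD1 and KRT25 were higher and FOXD4L3 and DEFB126 lower with doxycycline.

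PLEKHD1 (chromosome 14, 69484692 to 69531551), which encodes a protein with a pleckstrin homology domain, was the furthest apart. Its promoter was at 0 in all 3 DMSO libraries and at 75.9%, 95.1% and 46.6% in doxycycline replicates 1 to 3. H3K4me1, H3K4me2 and H3K4me3 were present there in all 6 lists of each mark and H3K27ac in none, so none of the other marks separated the treatments. The peaks in doxycycline had fold enrichments of 2.19, 2.37 and 2.51 and stood at percentiles 63.95, 59.99 and 4.59 of their lists by −log10 q. KRT25 (chromosome 17, 40748021 to 40755331), a keratin of the hair root sheath, had 54.4%, 24.7% and 42.9% in DMSO and 100%, 100% and 85.6% in doxycycline. CLEC12B (chromosome 12, 10010627 to 10018796), an inhibitory lectin receptor of immune cells, had 60.9%, 0% and 22.1% in DMSO and 100%, 100% and 71.6% in doxycycline. CD1A (chromosome 1, 158254424 to 158258269), which presents lipid antigens, had 15.2%, 16.7% and 25.8% against 46.5%, 100% and 54.9%. The unnamed gene ENSG00000289503 had 62.9%, 0% and 8.65% against 100%, 100% and 47.9%. ARL14EPL (chromosome 5, 116032324 to 116060118) had 30.9%, 0% and 0% against 61%, 59.1% and 29.6%, a limma difference of 29.4 percentage points (SE 0.905). None of these carried another of the 4 marks at its promoter in any list, PLEKHD1 aside. All 6 had the treated libraries above the controls of their kind, as the rule demanded.

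In the lower direction PRNP, the gene of the prion protein, led. Its promoter (gene on chromosome 20, 4686350 to 4701590) had 100%, 43.6% and 71.4% in DMSO and 72.8%, 60.1% and 18% in doxycycline, beside all 4 other marks in every list. FOXD4L3 (chromosome 9, 68302867 to 68305084), a forkhead gene with near-identical copies, had 87.3%, 60.4% and 58.3% against 67.7%, 50.8% and 9.04%. Reads of mapping quality under 30 had been dropped, and coverage of such copies is uncertain. DEFB126 (chromosome 20, 142590 to 145751), a defensin of the sperm coat, had 100%, 34.3% and 19.4% against 77.5%, 58.2% and 0%. HRURF had 73.9%, 31.3% and 23% against 24.9%, 26.5% and 0%. OOEP, an oocyte protein gene, had 73.4%, 49.5% and 34.7% against 49.5%, 49.5% and 20.4%. SLC5A8 (chromosome 12, 101155493 to 101210238), a transporter of short-chain monocarboxylates, had 85.3%, 56.1% and 65% against 71.3%, 51.8% and 0%. Doxycycline replicate 3 was the lowest library at each of these 6 genes. As the only treated short-fragment library it had to lie below both short-fragment controls, as the rule demanded.

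**Figure D4:**
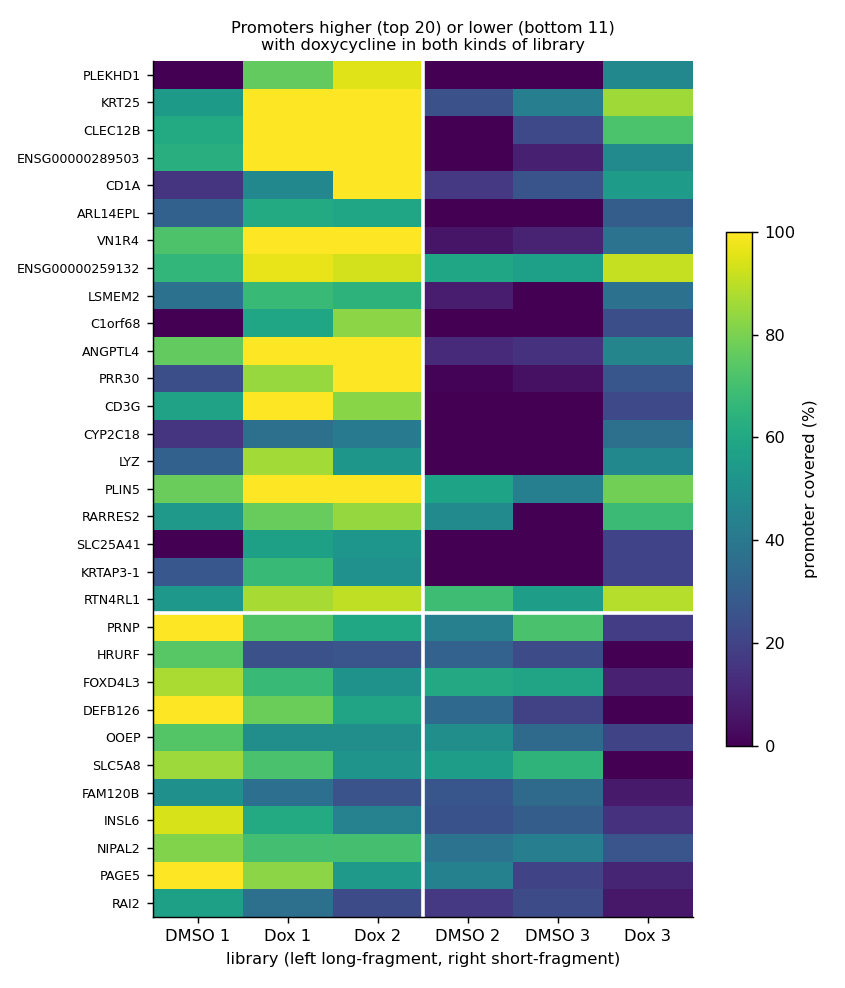
Covered share of the promoter in percent, by colour from 0 to 100, for the 20 promoters with the largest separation higher with doxycycline and the 11 lower, with 1 column per library. The long-fragment libraries are on the left and the short-fragment ones on the right, and PLEKHD1 in the top row is at 0 in the 3 DMSO libraries and at 46.6 to 95.1% in the others.

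Gene bodies of 5 kb or more that separated were 8 in the higher direction and 1 in the lower. OR2A5, an olfactory receptor gene on chromosome 7, had 81.6%, 33.3% and 35.3% in DMSO and 100%, 100% and 63.4% in doxycycline. PIP (chromosome 7, 143132077 to 143139739), a secreted protein of exocrine glands, had 84.3%, 31.2% and 8.86% against 100%, 100% and 47.7%. SMIM24 had 83.3%, 29.8% and 11.3% against 100%, 100% and 46.3%. SERPINA7, which encodes thyroxine-binding globulin, was at 0 in all controls and at 19.2%, 29.6% and 12.9% with doxycycline. OR2C3 had 82.2%, 19.2% and 28.5% against 100%, 100% and 40.5%, and ARHGEF5 had 48.6%, 14% and 11.1% against 83.1%, 58.9% and 25.8%. GHSR (chromosome 3, 172443291 to 172448456), the ghrelin receptor, was lower, with 100%, 72.9% and 57.3% in DMSO and 70.8%, 65.2% and 42% in doxycycline.

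Clusters of skin and smell genes were also measured whole. The LCE and SPRR genes of the skin barrier (chromosome 1, 152510803 to 153262124) were covered over 48.1%, 14.9% and 16.5% in DMSO and 57.7%, 54.4% and 19.6% in doxycycline. The olfactory receptor genes of chromosome 7 (143026200 to 144322737) were covered over 55.3%, 19.2% and 22.7% in DMSO and 62.9%, 57.7% and 27% in doxycycline. In both clusters each treated library lay above the controls of its kind, by 3.08 and 2.36 percentage points at the least. The type I keratin genes of chromosome 17 did not separate, at 47%, 13.1% and 14% against 52.3%, 43.7% and 14.7%. The clusters were chosen after the values were seen. Of 415 olfactory receptor genes, a list also added then, 211 passed the filter, and 5 had separated promoters in the higher direction and none in the lower, beside 1.17% and 0.183% of all tested promoters. These families have near-identical members, for which read placement is uncertain.

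Bins gave no separated feature at 10 percentage points, and 53 in the higher direction at 5 points. The foremost were chosen after their values were seen. The bin at chromosome 1, 146000001 to 146100000, had 36.2%, 16% and 17.7% in DMSO and 54.9%, 47.5% and 27.1% in doxycycline (limma adjusted p = 1). The bin at chromosome 7, 144300001 to 144400000, which holds ARHGEF5 and the end of the olfactory receptor cluster, had 68.1%, 18.9% and 21.1% against 87.4%, 77.2% and 35.5% (adjusted p = 1).

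Differences in the long-fragment libraries were set against those in the short-fragment libraries, to see whether bins moved alike in both kinds. Over 15802 bins Pearson's r was 0.25 and Spearman's rho 0.21, as a description without a p-value. Replicates 1 and 3 of a treatment had been called against inputs with the same read totals. For the pairs of libraries with different inputs (doxycycline replicate 2 minus DMSO replicate 1, and doxycycline replicate 3 minus DMSO replicate 2) r was 0.026 and rho 0.0048. For the pairs with the same inputs (replicates 1 and replicates 3), a setting added after seeing the data, r was 0.20. Where only the input of doxycycline or only that of DMSO was the same, both also added then, r was 0.22 and 0.11. For promoters r was 0.065 over the means and 0.0033 for different inputs, and for gene bodies 0.067 and 0.0045. The part of a shared input or of the depth in the separated features was not tested.

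**Figure D5:**
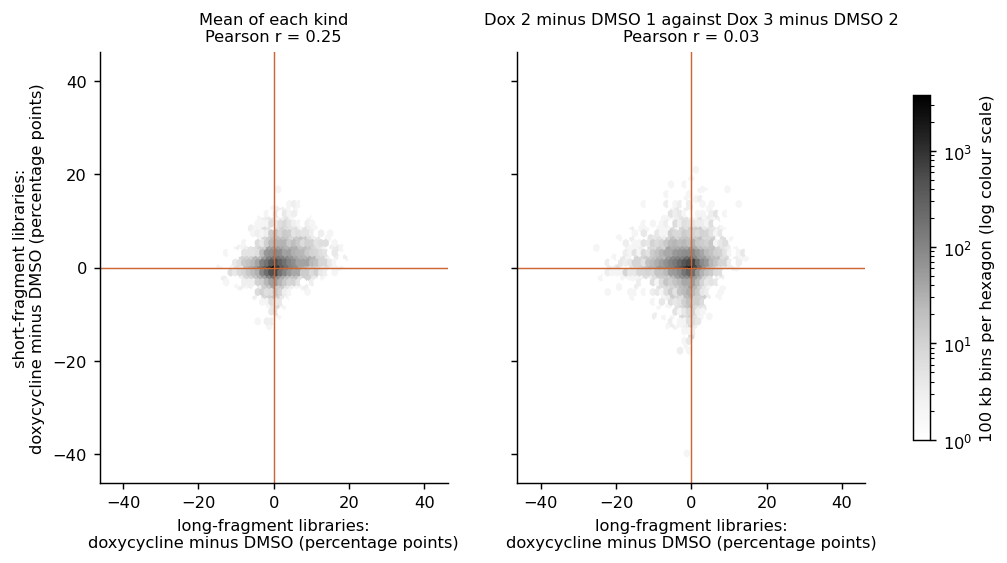
Difference in covered share, doxycycline minus DMSO in percentage points, of each 100 kb bin in the long-fragment libraries (horizontal) and in the short-fragment libraries (vertical), with darker hexagons holding more of the 15802 bins. The left panel uses the means of each kind (r = 0.25) and the right panel the pairs called against different inputs (r = 0.026).

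Exact tests did not tell the treatments apart by the share of the mark that lay under other marks. Lists were matched by replicate number, though no label ties the numbers to a shared culture. Of the covered length, 3.63%, 4.04% and 3.30% lay under H3K4me1 peaks of the same-numbered list in DMSO replicate 1 and doxycycline replicates 1 and 2. The short-fragment values were 5.38%, 4.74% and 5.39%. For H3K4me3 the shares were 1.26 to 1.39% in long-fragment and 1.78 to 2.58% in short-fragment libraries, and for H3K27ac they were 0.262%, 0.327% and 0.197% in the long-fragment libraries, in the order used above, and 0.294%, 0.280% and 0.171% in the short-fragment ones. The log2 differences between treatments were 0.052 for H3K4me1, 0.25 for H3K4me2, -0.056 for H3K4me3 and -0.40 for H3K27ac. Their exact permutation p-values were 0.778, 0.556, 1 and 0.444, each with an adjusted p of 1 over 4 values. Doxycycline replicates 1 and 2 differed by 0.90 for H3K4me2 and 0.73 for H3K27ac on the log2 scale. The lists of the other marks differed in extent too. In doxycycline replicates 1 and 2 H3K4me2 peaks covered 3.28% and 1.97% of the genome and H3K27ac peaks 4.68% and 4.12%. For H3K27ac the difference between treatments was -0.043 in the long-fragment libraries and -0.75 in the short-fragment ones, where the controls differed by 0.071 and doxycycline replicate 3 was the only treated library.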

How the data were processed

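ChIP-seq peak lists of H3K27me3 from KELLY cells were analysed, 3 libraries for DMSO and 3 for doxycycline, with groups and replicate numbers from the labels. Reads were aligned with Bowtie2 to hg38 and kept at a mapping quality of 30 or more, per the submitters' processing notes and the study's methods. Per the file headers, the authors called broad peaks per library with MACS2 2.1.1.20160309 against an input (q cutoff 0.05 for strong and 0.1 for broad regions). Each peak's pileup, a coverage signal, was deposited as the authors' caller gave it. The authors' caller also set the −log10 of its p-value and of its q-value against local input. Its fold enrichment is the ratio of ChIP to local input as deposited by the authors. Only peak positions, with q as an alternative threshold, were compared between libraries. Weak regions can be lost at lower depth, which bears on peak positions and covered shares too.

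The covered share of promoters, gene bodies and 100 kb bins was computed on GENCODE 44 (hg38) with python 3.11.15, numpy 2.4.6 and pandas 2.3.3. Features covered in at least 2 libraries were fitted with limma 3.58.1 (R 4.3.3; kind and treatment as terms, threshold 0.05 after Benjamini-Hochberg adjustment) and tested on simulated data. Coverage per gene was also checked against bedtools. Single values were log2-transformed and permuted exactly within kinds over 9 assignments. Gene lists were described by counts, with 382 members in 16 lists. Named genes were those with the largest separation (6 promoters and 6 gene bodies of 5 kb or more per direction, as far as there were any), up to 5 runs of adjacent bins per direction, list members that separated, any limma calls, the genes listed around RUNX1T1, HOX clusters and adrenergic factors, with the promoter sequence of 4 of the separated genes. The members, lists and tests were chosen with earlier results of these data known. Alternatives were a stricter q, lists of equal covered length, other windows, other terms, a replicate block and leaving out a library or the MYCN region. Values of some list members are not reported here.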

Additional observations from a re-analysis of the deposited data

How the results depend on the processing

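The main tests gave no call, so the settings below bear on directions of differences without a call and on counts without a test. The cause of each shift was not tested. Log2 differences, doxycycline minus DMSO, changed sign as follows. At a q of 0.001 or less they were -0.071 for the genome, -0.11 for promoters, -0.093 for gene bodies, -0.051 outside genes, 0.0059 under H3K4me3 and 0.011 under H3K27ac. With lists of equal covered length they were -0.018 for promoters and -0.014 for gene bodies. Over the libraries left out in turn the range was -0.0072 to 0.13 for the genome, -0.029 to 0.048 for promoters, -0.022 to 0.063 for gene bodies and -0.0046 to 0.14 outside genes. In the same way it was -0.58 to 0.15 for domains of 10 kb or more, -0.022 to 0.13 under H3K4me1 and -0.23 to 0.11 under H3K4me3. Without the kind term, and likewise with the replicate block in its place, the domain share gave 0.58 and the H3K4me1 share -0.12. The replicate block with the kind term, which leaves only pairs 1 and 3, gave 0.16 for domains and 0.067 for H3K4me3, and it changed no other direction. Joining peaks within 5 kb, added after seeing the data, gave 0.037 for domains. The promoter share over the genome share and the H3K4me2 share kept their direction in all 11 alternatives each.

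Promoters called by limma numbered 2 at a q of 0.001 or less, 2 with lists of equal covered length and 0 to 223 over the libraries left out, the 223 being without DMSO replicate 1, where 1 kind alone carries the contrast. Promoters without the filter on covered libraries could not be fitted. Bins and gene bodies had 0 calls in all 16 and 14 alternatives. No label ties the replicate numbers to a shared batch or culture. The numbers were therefore not taken as a pairing, and with the replicate block limma also made 0 calls. Libraries of the same number deviated from their treatment means across 15802 bins with a correlation of 0.93, -0.75 and 0.94 for numbers 1 to 3. Both libraries of number 1 are long-fragment and both of number 3 short-fragment, while number 2 joins a short-fragment control and a long-fragment treated library. These correlations follow the kind and cannot show whether a number marks a shared batch. Separated promoters numbered 12 higher and 6 lower at a q of 0.001 or less, 170 and 44 at a margin of 5 percentage points, and 19 and 2 at 20 points, both margins added after seeing the data. Separated gene bodies numbered 4 and 1 at the stricter q, 88 and 23 at 5 points and 4 and 0 at 20 points, with 8 lower in lists of equal length. Leaving out a library gave 90 to 157 promoters higher and 16 to 61 lower, 29 to 69 gene bodies higher and 11 to 32 lower, and 0 to 8 bins higher and 0 to 1 lower. This cannot be done for DMSO replicate 1 or doxycycline replicate 3, each alone in its kind and treatment. Bins higher numbered 1 in lists of equal length and 53 at 5 points. Across bins r was 0.026 for pairs with different inputs, 0.20 for pairs with the same inputs, 0.22 where only the doxycycline input was the same and 0.11 where only the DMSO input was, the last 3 added after seeing the data.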

Other observations

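A further group of promoters told the 2 kinds of library apart. At 30 genes at least 50% of the promoter was covered in all 3 long-fragment libraries and none of it in the 3 short-fragment ones. These promoters had a median of 9.495 CpG per kb, against 26.99 over all genes, and 73.3% of them had fewer than 20 per kb, against 32.3%. Among 100 kb bins the same pattern, with under 10% in the short-fragment libraries, was found at 30 bins, with a median of 10.2 CpG per kb against 8.28 over all bins, so these bins were not poorer in CpG than the average.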
